A study of Mus musculus with 10 samples.

Results

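The 9 genes described here encode surface proteins by which satellite cells, the stem cells of skeletal muscle, are recognised and sorted: Vcam1, Cd34, Itga7, Itgb1, Cxcr4, Sdc3, Sdc4, Cdh15 and Ncam1. They are a list of gene symbols, set by no threshold on their values but drawn up with earlier results of these data known, and all 9 were among the 12803 genes of the deposited expression table. RNA was sequenced from muscle stem cells of limb muscle of male C57BL/6 mice, gated as CD45-, CD31-, Sca1- and VCAM+, in 10 libraries of 1 animal each. The fresh group (n = 3) was frozen after sorting, at 0 h. The vehicle group (n = 3) was kept for 24 h in Ham's F-10 medium with 10% horse serum on plates coated with extracellular matrix, in the presence of DMSO. The Tubastatin A group (n = 4) was kept for the same 24 h in the same medium with 40 µM Tubastatin A in DMSO. No other genotype or agent is named in the labels, and the fresh libraries are labelled with the treatment vehicle at 0 h. The replicate spread is therefore between animals, in cells that were all selected on the VCAM protein before any culture.

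Satellite cells lie in quiescence between the membrane of the muscle fibre and its basal lamina, and they enter the cell cycle after injury or when they are plated. Their surface proteins hold them in that niche: integrin α7β1 binds laminin, M-cadherin (Cdh15) and NCAM join the cell to the fibre, VCAM1 binds integrin α4β1, the heparan sulfate proteoglycans syndecan-3 and syndecan-4 gather growth factors, and the receptor CXCR4 responds to the chemokine CXCL12. Tubastatin A is a hydroxamate inhibitor of the deacetylase HDAC6, and the study asked whether it keeps muscle stem cells quiescent in culture. Transcripts were measured here, not the surface proteins. Hdac6 itself lay between 6.67 and 8.43 RPKM (reads per kilobase of exon, relative to library size) in fresh, between 5.80 and 6.36 in vehicle and between 5.74 and 7.40 in Tubastatin A libraries.

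The cell identity in the labels was compared with marker transcripts. Pax7, the transcription factor that defines satellite cells, was between 15.3 and 33.2 RPKM in fresh, 4.21 and 5.40 in vehicle and 1.68 and 2.65 in Tubastatin A libraries. Myf5, a myogenic factor, fell from between 227 and 283 RPKM in fresh to between 5.78 and 6.90 in Tubastatin A libraries. Myod1, a myogenic factor of activated cells, was 272 RPKM in fresh replicate 1 and between 928 and 1071 in the other fresh libraries, against 1079 to 1279 in vehicle and 501 to 567 in Tubastatin A libraries. Fresh replicate 1 thus stood apart from its group in Myod1. Of the transcripts behind the negative gates, Ptprc (CD45) was not among the 12803 genes and could not be checked. Pecam1 (CD31) averaged 5.61, 0.281 and 0.230 RPKM in the order fresh, vehicle, Tubastatin A, and Ly6a (Sca1) averaged 9.98, 0.286 and 0.207 RPKM. The summed levels of endothelial, fibro-adipogenic, immune and Schwann cell markers were higher in every fresh than in every cultured library, while those of tenocyte and of pericyte and smooth muscle markers overlapped between fresh and vehicle libraries. The 9 endothelial genes summed to 45.2 to 54.7 RPKM in fresh, 3.31 to 4.51 in vehicle and 6.13 to 6.97 in Tubastatin A libraries. The 10 genes of fibro-adipogenic progenitors summed to 1801 to 2241, 69.9 to 85.0 and 88.0 to 121.4 RPKM, while their defining gene Pdgfra stayed at or under 0.218 RPKM in every library. Most of the fresh sum was Gsn, Col3a1 and Dpt, with fresh means of 1362, 407 and 145 RPKM. Col1a1 and Dcn averaged 28.2 and 25.1 RPKM in fresh libraries, and Lum, Smoc2 and Cd248 only 5.25, 2.66 and 0.825 RPKM. Only 3 of 10 listed immune genes (Cd68, Lyz2 and Cd79a) and 3 of 6 Schwann cell genes were among the genes measured. In the same order, these immune genes summed to 6.01 to 9.81, 0.722 to 0.954 and 2.60 to 4.13 RPKM, and these Schwann cell genes to 9.53 to 12.7, 0.838 to 1.17 and 1.65 to 2.68 RPKM. Tenocyte genes (7) summed to 46.8 to 69.1, 66.5 to 78.1 and 5.54 to 12.5 RPKM, and most of that in vehicle was Scx, a transcription factor of tendon cells, with means of 10.0, 70.5 and 4.14 RPKM. Pericyte and smooth muscle genes (9) summed to 206.3 to 253, 176 to 241 and 14.0 to 64.6 RPKM, of which Acta2, smooth muscle actin, had means of 212, 212 and 23.0 RPKM. The 6 muscle stem cell identity genes summed to 1569.8 to 1729.8, 315 to 414 and 160.2 to 197 RPKM, and the sort-negative pair to 8.75 to 21.9, 0.388 to 0.855 and 0.323 to 0.616 RPKM. Most of the identity sum in cultured libraries was Des, with means of 534, 309 and 140 RPKM. These 6 genes did not move together in Tubastatin A against vehicle. There Myf5, Des and Pax7 were lower, Chrdl2 and Calcr higher (log2 changes 1.58 and 0.61), and Spry1 did not pass an adjusted p under 0.05. Of the mature myofibre genes, 11 were measured, with sums of 83.5 to 116.7 RPKM in fresh and 19.1 to 27.8 in vehicle libraries, but Tubastatin A replicate 2 reached 397 RPKM where the other 3 libraries of its group lay between 6.36 and 7.45. Without that library 7 members in place of 8 passed in Tubastatin A against vehicle, Itgb1 being the one lost. Without fresh replicate 1, 7 members still passed in vehicle against fresh, with Cd34 lost and Sdc3 gained. In vehicle against fresh, all 9 endothelial, 9 of 10 fibro-adipogenic, all 3 immune, all 3 Schwann cell, 6 of 7 tenocyte, 7 of 9 pericyte and 6 of 11 myofibre genes were lower at an adjusted p under 0.05 on the authors' scaling, while Scx was higher, so most of these genes moved in the direction of most of the members. In Tubastatin A against vehicle, 1 endothelial gene was higher and 1 lower, and 3 fibro-adipogenic genes were higher and 2 lower. There 2 tenocyte genes were higher and 1, Scx, was lower (log2 change -3.96, adjusted p = 1.9e-06), and 2 pericyte genes were higher and 2 lower, Acta2 among them (-3.59, adjusted p = 6.26e-05). Over all genes, 35.0% were lower and 32.0% higher in vehicle against fresh, and 29.7% and 29.6% in Tubastatin A against vehicle. The part of these cell types in the values below was not tested.

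Levels are comparable between libraries only through the scaling of the table. Depth in the table was 37.5M to 55.3M reads per library, and reads over the library size that the authors' RPKM imply were 1.39 to 1.41 in fresh, 0.909 to 0.928 in vehicle and 0.829 to 0.889 in Tubastatin A libraries. Rescaling to the reads in the table therefore raised the log2 change of a gene by a median of 0.50 in vehicle against fresh, 0.07 in Tubastatin A against vehicle and 0.56 in Tubastatin A against fresh. The median log2 change over all genes went from -0.03 to 0.34, from 0.02 to 0.06 and from -0.03 to 0.40 in the same order. Genes called higher and lower went from 4096 and 4484 to 6365 and 2905 in vehicle against fresh and from 3811 and 4503 to 6916 and 2590 in Tubastatin A against fresh, but from 3796 and 3798 to 4332 and 3566 in Tubastatin A against vehicle. With the RPKM of each library rescaled to the same sum (TPM), the calls in the same order were 6333 and 2917, 7038 and 2505, and 4463 and 3357. Tubastatin A against vehicle, where both groups were cultured, is the comparison least touched by this choice.

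Promoter sequences were taken from RefSeq for the build GRCm38.p6, as the 245 bases that end 6 bases before the RefSeq start of transcription, and 6 of the 9 members had an entry. That start lies 699 bases downstream of the GENCODE M21 start for Sdc4 and 408 bases downstream for Cdh15, so both windows lie within the GENCODE span of their gene, that of Sdc4 in no exon and that of Cdh15 overlapping one. The other 4 windows lie before the GENCODE start. The 3 printed here belong to the member with the highest level in fresh cells (Sdc4), the member with the lowest (Cxcr4) and the member that fell most under Tubastatin A relative to vehicle (Cd34). They read 5′ to 3′ on the strand of the gene, and capitals mark matches to TATAAN. The windows lie at chr2:164443194-164443438 on the minus strand for Sdc4, chr1:128592305-128592549 on the minus strand for Cxcr4 and chr1:194938571-194938815 on the plus strand for Cd34.
Sdc4: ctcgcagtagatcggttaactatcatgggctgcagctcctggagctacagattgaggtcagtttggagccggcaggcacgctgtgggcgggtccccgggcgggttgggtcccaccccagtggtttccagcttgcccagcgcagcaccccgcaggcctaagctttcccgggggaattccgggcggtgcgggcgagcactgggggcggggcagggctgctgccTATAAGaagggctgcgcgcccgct
Cxcr4: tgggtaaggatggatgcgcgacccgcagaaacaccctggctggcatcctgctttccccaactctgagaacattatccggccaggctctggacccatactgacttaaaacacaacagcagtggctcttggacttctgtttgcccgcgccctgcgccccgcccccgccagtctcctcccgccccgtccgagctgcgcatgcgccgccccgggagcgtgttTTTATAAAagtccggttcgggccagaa
Cd34: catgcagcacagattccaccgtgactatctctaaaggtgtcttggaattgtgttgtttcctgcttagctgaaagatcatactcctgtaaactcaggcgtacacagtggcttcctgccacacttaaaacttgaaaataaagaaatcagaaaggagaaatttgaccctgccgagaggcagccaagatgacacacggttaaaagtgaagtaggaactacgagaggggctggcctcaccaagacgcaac
The window of Sdc4 holds 1 match to TATAAN, which begins 29 bases before the RefSeq start, and that of Cxcr4 holds 2 that overlap each other, 32 and 30 bases before it. Neither the window of Cd34 nor those of Itgb1, Sdc3 and Cdh15 holds this motif, which was found on either strand in 22.5% of 32851 promoters of the same length. The motif GGGNNNNNCC, written after sites of the factor NF-κB, matched 5 times in Sdc4 with overlaps, and 1 time each in Cd34, Sdc3 and Cdh15, against 44.9% of all promoters with a match. CANNTG, the E-box bound by myogenic factors, matched in the window of Cdh15 only among the 6 members (3 matches, in the window that overlaps a GENCODE exon), while 65.7% of all promoters held it. These matches are descriptions of letters in a window, and no binding was measured.

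**Figure D1:**
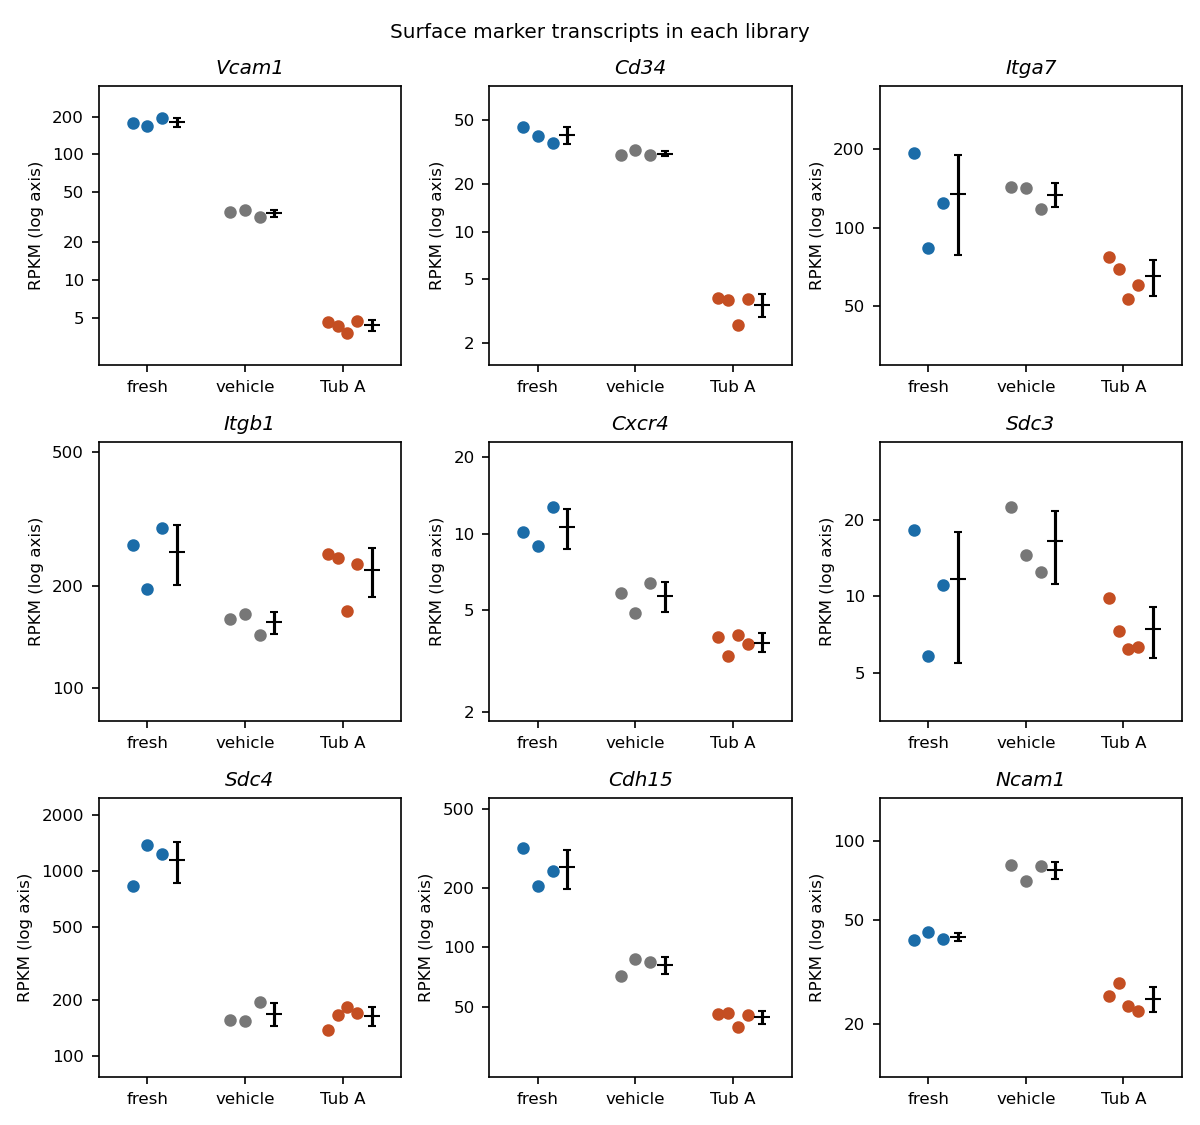
RPKM on a log axis (each panel has its own range) for the 9 genes in fresh, vehicle and Tubastatin A (Tub A) libraries; each point is 1 library in the order of its replicate number, and the bar beside it is the mean with the SD. Vcam1 separates the 3 groups, with 167 to 194 RPKM in fresh, 31.6 to 36.0 in vehicle and 3.78 to 4.70 in Tubastatin A libraries, while Sdc4 separates fresh from cultured libraries only.

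Most of the surface markers were lower with Tubastatin A than with vehicle, and on the authors' scaling most were also lower in vehicle culture than in fresh cells. In vehicle against fresh, 6 of the 9 members were lower and 1 was higher at an adjusted p under 0.05 (limma on log2(RPKM + 1), Benjamini-Hochberg over all genes). Over all genes, 35.0% were lower and 32.0% higher in that comparison, 67.0% in all. On the reads in the table and in TPM, 3 members were lower and 3 higher in that comparison. In Tubastatin A against vehicle, 7 members were lower and 1 higher, where 29.7% of all genes were lower, 29.6% higher and 59.3% passed in all; the members' split was the same under both rescalings. In Tubastatin A against fresh, 7 members were lower and none higher, where 35.2% of all genes were lower, 29.8% higher and 64.9% passed in all, and both rescalings gave 5 lower and 1 higher. Most genes of the table passed in each comparison. In both comparisons with fresh, 7 of 9 members passed, which is near the background and is no result about the members by itself. In Tubastatin A against vehicle 8 of 9 passed, a larger share than the 59.3% of all genes. Whether so small a list, drawn up with earlier results of these data known, differs from all genes was not tested. The median log2 change of the members was -0.67, -1.03 and -1.28 in the same order, against -0.03, 0.02 and -0.03 over all genes. The libraries of the groups compared did not overlap for 7, 8 and 7 members, and for 67.6%, 68.6% and 61.3% of all genes. Each pair of comparisons shares 1 of the groups, so these counts are not independent of each other.

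Vcam1 (ENSMUSG00000027962, chr3:116109949-116129688, minus strand of mm10 in GENCODE M21, as for the positions below) encodes the adhesion molecule of the immunoglobulin family on which these cells were sorted. Its level was 179, 167 and 194 RPKM in fresh replicates 1 to 3 and 34.5, 36.0 and 31.6 in vehicle replicates 1 to 3. It was 4.61, 4.35, 3.78 and 4.70 RPKM in Tubastatin A replicates 1 to 4. Every fresh library was thus far above every vehicle library, and every vehicle library far above every Tubastatin A library. The means were 180.2 ± 13.7 (SD, n = 3), 34.0 ± 2.24 (SD, n = 3) and 4.36 ± 0.417 (SD, n = 4) RPKM. Vehicle against fresh gave a 5.29-fold lower mean, with a log2 change of -2.37 (SE 0.11, adjusted p = 5.57e-09). Tubastatin A against vehicle gave a further 7.81-fold lower mean, with a log2 change of -2.71 (SE 0.10, adjusted p = 3.14e-09). Set against fresh cells, the mean under Tubastatin A was 41.3-fold lower (log2 change -5.08, adjusted p = 2.55e-11), and 0.281% of all genes had a lower log2 change than Vcam1 in that comparison. The reads behind these values numbered 43769 to 62433 per fresh, 12557 to 14696 per vehicle and 1516 to 2550 per Tubastatin A library. In RNA of a whole population, fewer cells with the transcript and less of it in each cell cannot be told apart.

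Cd34 (chr1:194938819-194961279, plus strand) encodes a sialomucin that satellite cells share with endothelial and blood-forming cells. It moved little in culture and fell steeply with the compound. Its fresh libraries held 45.5, 39.7 and 35.7 RPKM, its vehicle libraries 30.2, 32.3 and 30.0 RPKM and its Tubastatin A libraries 3.80, 3.71, 2.60 and 3.77 RPKM. The lowest fresh library was close to the highest vehicle library, without overlap, and all 4 Tubastatin A libraries were far below both. The comparison of Tubastatin A with vehicle gave an 8.89-fold lower mean (30.9 ± 1.28 against 3.47 ± 0.582 RPKM, SD), with a log2 change of -2.84 (SE 0.13, adjusted p = 8.67e-09). Of all genes, 0.945% had a lower log2 change than Cd34 in that comparison and 1.13% a lower one than Vcam1. The small decrease in vehicle against fresh, -0.37 (SE 0.14, adjusted p = 0.0317), was lost when fresh replicate 1 or any 1 vehicle library was left out (adjusted p between 0.0531 and 0.0963), and turned to 0.22 when libraries were scaled to their reads in the table or to TPM. Of the 9 endothelial markers, Pecam1, Cdh5, Kdr, Flt1, Esam, Emcn and Cldn5 were under 1 RPKM in every vehicle and every Tubastatin A library. Egfl7 was 1.48 to 1.99 RPKM in vehicle and 0.821 to 1.15 in Tubastatin A libraries, and Tek was 0.464 to 1.20 and 3.45 to 4.88 RPKM. Cd34 was at 30.0 RPKM or above in every vehicle library and between 2.60 and 3.80 RPKM in Tubastatin A libraries. In fresh libraries the 9 endothelial markers summed to 45.2 to 54.7 RPKM, where Cd34 alone was between 35.7 and 45.5 RPKM. Taken singly, each of them had a lower fresh mean than Cd34. Tek averaged 18.0, Esam 9.06, Cldn5 7.25, Pecam1 5.61 and Egfl7 2.73 RPKM there. Cdh5, Emcn, Kdr and Flt1 averaged 1.73, 1.59, 1.38 and 1.23 RPKM. The part of endothelial cells in the level of Cd34 was not tested.

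In vehicle culture Vcam1 fell 5.29-fold where Cd34 changed 1.31-fold, and with the compound they fell 7.81-fold and 8.89-fold from vehicle. Within a library, where scaling cancels, Vcam1 over Cd34 was 3.93, 4.21 and 5.44 in fresh, 1.14, 1.11 and 1.05 in vehicle and 1.21, 1.17, 1.45 and 1.25 in Tubastatin A replicates. The ratio was thus higher in every fresh library than in any cultured one, and every Tubastatin A value lay above every vehicle value by a small margin. This ratio and the 3 below were chosen after the values were seen and carry no test.

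Itga7 (chr10:128933818-128958282, plus strand) and Itgb1 (chr8:128685654-128733200, plus strand) encode the α and β chains of integrin α7β1, the laminin receptor of muscle, and their transcripts moved apart under Tubastatin A. The β1 chain also pairs with many other α chains. Itga7 was 194, 83.9 and 124 RPKM in fresh, 142, 141 and 118 in vehicle and 77.2, 69.3, 53.4 and 60.3 in Tubastatin A libraries. Fresh libraries spread widely around the vehicle libraries, and every Tubastatin A library was below every other library. The comparison of vehicle with fresh gave a log2 change of 0.07 (95% interval -0.47 to 0.62, adjusted p = 0.81), which does not show equal levels. With libraries scaled to their reads in the table the change was 0.68 (adjusted p = 0.0268), and without fresh replicate 2 it was -0.22 (adjusted p = 0.356). In Tubastatin A against vehicle, the mean fell 2.06-fold, from 133.8 ± 14.0 to 65.0 ± 10.4 RPKM (SD), with a log2 change of -1.04 (SE 0.23, adjusted p = 0.00245). Tubastatin A against fresh gave -0.96 (adjusted p = 0.00342), which became -0.28 (adjusted p = 0.289) on the reads in the table.

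Itgb1 went the other way. Its fresh libraries held 265, 196 and 297 RPKM, its vehicle libraries 159.6, 165 and 143 RPKM and its Tubastatin A libraries 249, 242, 169 and 232 RPKM. Every vehicle library was below every fresh library, and the lowest Tubastatin A library, replicate 3, was just above the highest vehicle library. Relative to fresh, vehicle gave a log2 change of -0.67 (SE 0.19, adjusted p = 0.00833), which shrank to -0.07 (adjusted p = 0.754) on the reads in the table. Relative to vehicle, Tubastatin A gave 0.50 (SE 0.18, adjusted p = 0.0312), the only member that rose in that comparison. The rise did not pass when any 1 vehicle library or Tubastatin A replicate 1, 2 or 4 was left out, with adjusted p between 0.0585 and 0.11 and log2 changes between 0.44 and 0.54. Against fresh, the change was -0.17 (95% interval -0.57 to 0.22, adjusted p = 0.418), and it was 0.51 (adjusted p = 0.0159) on the reads in the table and 0.55 (adjusted p = 0.0167) in TPM.

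The ratio of the chains showed the split without the scaling. Itgb1 over Itga7 was 1.37, 2.34 and 2.39 in fresh, 1.12, 1.17 and 1.21 in vehicle and 3.23, 3.49, 3.16 and 3.86 in Tubastatin A libraries. The groups did not overlap, with vehicle lowest and Tubastatin A highest. Fresh replicate 1, with the highest Itga7, was the fresh library nearest to vehicle.

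Sdc4 (chr2:164424247-164443887, minus strand) and Sdc3 (chr4:130792537-130826319, plus strand) encode syndecans, proteoglycans that span the membrane and carry heparan sulfate. Sdc4 had the highest level of the members in fresh cells and fell in both cultures. It was 830.0, 1371 and 1229.6 RPKM in fresh, 157, 155 and 196 in vehicle and 138, 166, 185 and 170.3 in Tubastatin A libraries. All cultured libraries were at or below 196 RPKM, and the vehicle and Tubastatin A values interleaved. Vehicle against fresh gave a 6.76-fold lower mean (1143 ± 280.4 against 169 ± 23.4 RPKM, SD), with a log2 change of -2.73 (SE 0.20, adjusted p = 2.55e-07). Tubastatin A against fresh gave a 6.94-fold lower mean (log2 change -2.76, adjusted p = 1.57e-07). Between the cultures the change was -0.04, with a 95% interval of -0.45 to 0.38 (adjusted p = 0.887), which leaves room for differences of that size in either direction.

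Sdc3 was far lower and more scattered. It held 18.2, 5.82 and 11.1 RPKM in fresh, 22.4, 14.5 and 12.4 in vehicle and 9.83, 7.29, 6.22 and 6.31 in Tubastatin A libraries. Every Tubastatin A library was below every vehicle library, and the fresh libraries overlapped both. Tubastatin A against vehicle gave a 2.22-fold lower mean, with a log2 change of -1.03 (SE 0.30, adjusted p = 0.012), which was -0.80 (adjusted p = 0.0637) without vehicle replicate 1. The comparison of vehicle with fresh gave 0.54 (95% interval -0.17 to 1.25, adjusted p = 0.163), and 0.90 (adjusted p = 0.0155) without fresh replicate 1, the library that also stood apart in Myod1. It was 1.09 (adjusted p = 0.00897) on the reads in the table. Tubastatin A against fresh gave -0.49 (adjusted p = 0.179), -0.88 (adjusted p = 0.0103) without fresh replicate 2 and 0.12 (adjusted p = 0.727) on the reads in the table.

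Sdc4 exceeded Sdc3 in every library, by ratios of 45.5, 235.6 and 111.1 in fresh, 6.998, 10.7 and 15.8 in vehicle and 14.1, 22.7, 29.7 and 27.0 in Tubastatin A replicates. Every fresh ratio was above every cultured one, and Tubastatin A replicate 1 overlapped vehicle replicate 3. Sdc3 thus held its largest share of the pair in the vehicle libraries.

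**Figure D2:**
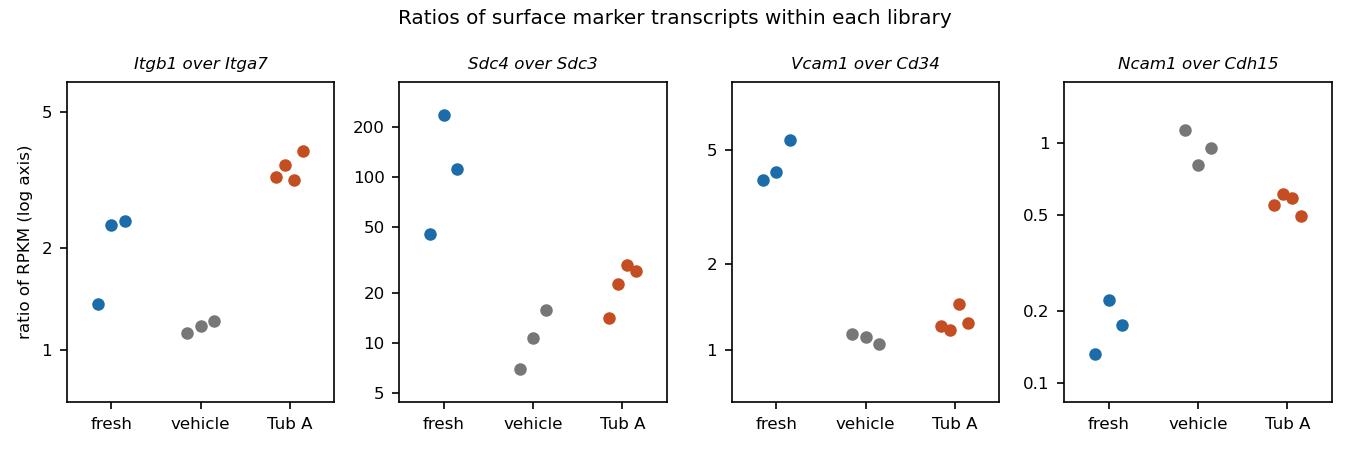
Ratio of RPKM (log axis, each panel with its own range) within each library for 4 pairs of members, 1 point per library. Itgb1 over Itga7 lies between 3.16 and 3.86 in Tubastatin A libraries and between 1.12 and 1.21 in vehicle libraries, and Ncam1 over Cdh15 lies between 0.132 and 0.221 in fresh and at 0.497 or above in cultured libraries.

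Cxcr4 (chr1:128588199-128592293, minus strand), the receptor for the chemokine CXCL12, had the lowest mean of the members in fresh and vehicle cells. Its fresh libraries held 10.1, 8.97 and 12.7 RPKM, its vehicle libraries 5.82, 4.87 and 6.42 RPKM and its Tubastatin A libraries 3.93, 3.30, 4.02 and 3.70 RPKM. The 3 groups descended without overlap, from fresh to vehicle to Tubastatin A. Its 329 to 720 reads per library were the fewest of any member. Relative to fresh, vehicle gave a log2 change of -0.79 (SE 0.15, adjusted p = 4.59e-04), which was -0.25 (adjusted p = 0.154) on the reads in the table. The comparison of Tubastatin A with vehicle gave -0.50 (SE 0.14, adjusted p = 0.00784), a 1.53-fold lower mean. Tubastatin A against fresh gave -1.28 (adjusted p = 6.07e-06).

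Cdh15 (chr8:122847966-122867397, plus strand) encodes M-cadherin, which links satellite cells to the muscle fibre through catenins. It was 317, 203 and 243 RPKM in fresh, 71.8, 87.2 and 84.0 in vehicle and 46.0, 46.7, 39.4 and 45.2 in Tubastatin A libraries. The groups formed 3 separate steps downwards. From fresh to vehicle, the fit gave a 3.14-fold lower mean (254.4 ± 57.5 against 81.0 ± 8.12 RPKM, SD), with a log2 change of -1.62 (SE 0.16, adjusted p = 2.85e-06). Relative to vehicle, Tubastatin A gave a 1.83-fold lower mean (44.3 ± 3.31 RPKM, SD), with -0.85 (SE 0.15, adjusted p = 4.3e-04). Tubastatin A against fresh gave -2.47 (adjusted p = 5.64e-08).

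Ncam1 (chr9:49502136-49798925, minus strand) encodes the neural cell adhesion molecule, which rises on myoblasts as they approach fusion and marks human satellite cells. On the authors' scaling with all libraries it was the only member that rose in culture with vehicle, and with Tubastatin A it lay below both other groups. Itga7 and Sdc3 rose as well on the reads in the table and in TPM, and Sdc3 without fresh replicate 1. The fresh libraries held 41.9, 44.9 and 42.2 RPKM, the vehicle libraries 81.1, 70.5 and 80.2 RPKM and the Tubastatin A libraries 25.5, 28.5, 23.4 and 22.5 RPKM. None of the groups overlapped. The comparison of vehicle with fresh gave a 1.80-fold higher mean (43.0 ± 1.69 against 77.3 ± 5.90 RPKM, SD), with a log2 change of 0.83 (SE 0.12, adjusted p = 5.23e-05). From vehicle to Tubastatin A, the fit gave a 3.10-fold lower mean (25.0 ± 2.70 RPKM, SD), with -1.59 (SE 0.11, adjusted p = 2.29e-07). Tubastatin A against fresh gave -0.77 (adjusted p = 6.5e-05), which was -0.10 (adjusted p = 0.422) on the reads in the table, so its place below fresh cells, unlike its place below vehicle, depends on the scaling. Ncam1 over Cdh15 within a library was 0.132, 0.221 and 0.173 in fresh, 1.13, 0.808 and 0.955 in vehicle and 0.554, 0.612, 0.592 and 0.497 in Tubastatin A replicates, again without overlap.

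**Figure D3:**
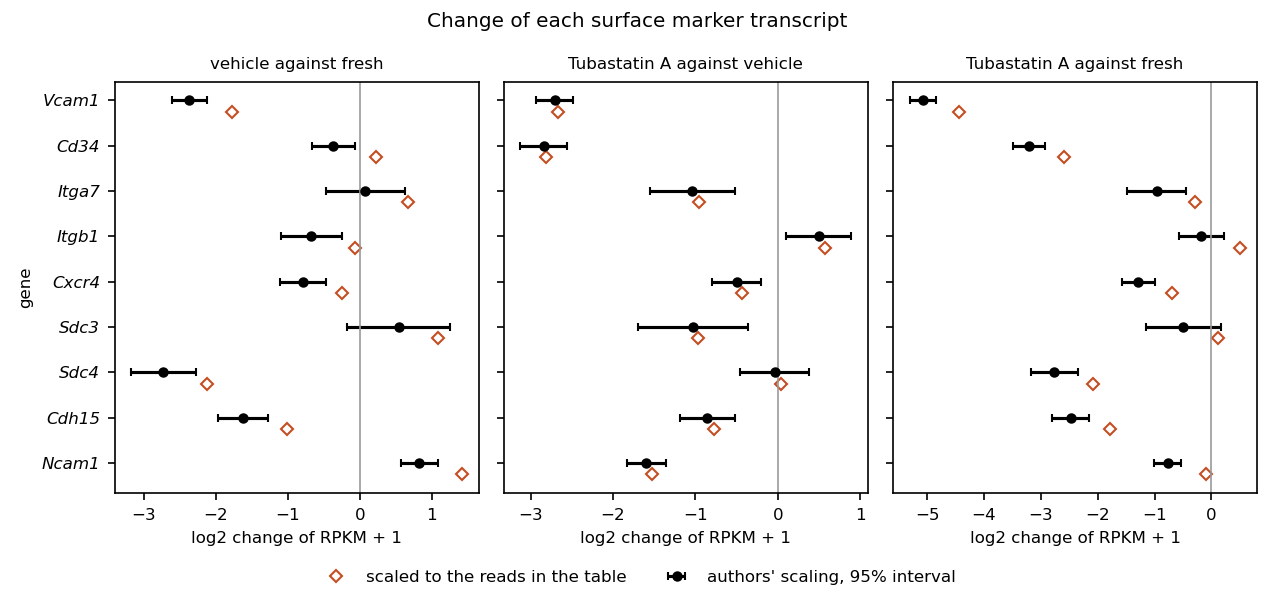
Log2 change of RPKM + 1 for the 9 members in the 3 comparisons, with the 95% interval (filled points), and the change when libraries are scaled to their reads in the table (open diamonds). The diamonds lie to the right of the points by about the same step in both comparisons with fresh cells, where Cd34 (vehicle against fresh) and Itgb1 and Sdc3 (Tubastatin A against fresh) cross 0, and near the points in Tubastatin A against vehicle, where Sdc4 crosses 0 by a small step and Vcam1 and Cd34 stand furthest to the left at -2.71 and -2.84.

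The order of the members by level changed between the groups. RPKM are per joint exon length of all annotated transcripts, such as 8870 bases over 4 transcripts for Vcam1 and 3251 over 1 for Cdh15. The transcripts present may be shorter, so the order between genes is approximate. In fresh cells Sdc4 led with 1143 RPKM, followed by Cdh15 and Itgb1 at 254.4 and 252.6, Vcam1 at 180.2, Itga7 at 134, Ncam1 at 43.0, Cd34 at 40.3, Sdc3 at 11.7 and Cxcr4 at 10.6. The ranges of Cdh15 and Itgb1, Vcam1 and Itga7, Ncam1 and Cd34, and Sdc3 and Cxcr4 overlapped, so these neighbours have no order. In vehicle Sdc4 (169), Itgb1 (156) and Itga7 (133.8) led, then Cdh15 (81.0) and Ncam1 (77.3), Vcam1 (34.0) and Cd34 (30.9), Sdc3 (16.4) and Cxcr4 (5.70). There Sdc4 overlapped Itgb1, Cdh15 overlapped Ncam1, and Vcam1 overlapped Cd34. With Tubastatin A, Itgb1 (223) and Sdc4 (164.7) led with overlapping ranges, then Itga7 (65.0), Cdh15 (44.3), Ncam1 (25.0) and Sdc3 (7.41), and Vcam1 (4.36), Cxcr4 (3.74) and Cd34 (3.47) were last, each overlapping the next. The sum of the 9 members was 1899.6 to 2190.5 RPKM in fresh, 701 to 707 in vehicle and 486 to 571 in Tubastatin A libraries, and Sdc4 alone made up 43.7% to 64.6%, 21.9% to 28.0% and 24.8% to 38.0% of it.

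For each member, the genes whose pattern over the 10 libraries was most like it were sought. They are those with the smallest root mean square difference of log2(RPKM + 1), each centred on its own mean. Candidates had a mean log2(RPKM + 1) of at least 1, a symbol that stands once, and no predicted-gene symbol (Gm with digits, or Rik). This is a description over libraries that share their groups and scaling. The 1 RPKM added shrinks the changes of low genes, so a likeness on this scale need not hold for fold changes of RPKM. Esam and Poc1a below are such low genes, and their RPKM fell by larger factors than those of Sdc4 and Ncam1. Nearest to Vcam1 were Myf5 (difference 0.25), with means of 248 RPKM in fresh, 34.1 in vehicle and 6.37 in Tubastatin A libraries, and the fibroblast growth factor receptor Fgfr4 (0.31), with 267, 48.9 and 10.1 RPKM. Nearest to Cd34 were the cell cycle kinase gene Wee1 (0.26), with 32.2, 27.5 and 1.80 RPKM, and Lrrc17 (0.27). Sdc4 was nearest to Esam (0.14), an endothelial adhesion gene with 9.06, 0.299 and 0.289 RPKM, and to Socs1 (0.15), a brake on cytokine signalling with 41.9, 6.75 and 6.51 RPKM. Itga7 was nearest to Sertad4 (0.15) and Cep131 (0.16), Itgb1 to St6gal1 (0.11) and Zfp110 (0.11), and Cxcr4 to Cdc42se2 (0.12) and Thap2 (0.13). Sdc3 was nearest to Irs1 (0.20), an adaptor of the insulin receptor, and Plxnd1 (0.21), Cdh15 to Sec1 (0.16) and Plpp3 (0.16), and Ncam1 to Poc1a (0.12) and Ubtf (0.12). Among the 9 members, Vcam1 and Cd34 had the nearest genes furthest away.

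The partners of each member were counted from 12 gene lists chosen by function. Over all genes, 35.0% were lower and 32.0% higher in vehicle against fresh, 67.0% in all, on the authors' scaling. In Tubastatin A against vehicle these shares were 29.7%, 29.6% and 59.3%. Where the number that passed in a list lies near these shares, it is no result about the list by itself. Of 22 other surface markers of muscle stem cells, 19 were lower and 2 higher in vehicle against fresh (median log2 change -1.52), while 6 were lower and 7 higher in Tubastatin A against vehicle (median 0.21). Chodl, a C-type lectin gene, went from 602 RPKM in fresh to 2.39 in vehicle and 4.49 with Tubastatin A, and Calcr, the calcitonin receptor that keeps satellite cells quiescent, from 81.2 to 1.17 and 2.32. Cav1, a caveola protein (339, 137 and 19.1 RPKM, log2 change -2.78 in Tubastatin A against vehicle, adjusted p = 3.38e-08), and Fgfr4 (-2.17, adjusted p = 3.8e-07) fell with the compound as Vcam1 and Cd34 did. Fgfr1, another growth factor receptor, rose (106.3, 23.0 and 81.0 RPKM, log2 change 1.77, adjusted p = 9.81e-07).

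Of the other adhesion genes of the immunoglobulin family, to which Vcam1 and Ncam1 belong, most of those that passed were higher with the compound than with vehicle, where Vcam1 and Ncam1 were lower. Of 18 measured, 14 were lower and none higher in vehicle against fresh (median log2 change -1.16, and 12 lower and 1 higher when scaled to the reads), and 12 were higher and 3 lower in Tubastatin A against vehicle (median 0.46). Icam1, a ligand of leukocyte integrins, went from 61.1 to 1.21 and back to 9.30 RPKM (log2 change 2.22 in Tubastatin A against vehicle, adjusted p = 5.82e-08). F11r, which encodes the junctional molecule JAM-A, went from 7.23 to 0.731 and 6.67 RPKM (2.14, adjusted p = 1.8e-06), and Cadm1 from 0.620 to 0.366 and 2.07 RPKM (1.17, adjusted p = 1.47e-06). Of 4 measured genes for the polysialic acid that NCAM carries, all 4 rose in vehicle against fresh, and with Tubastatin A 1 rose further and 1 fell. The polysialyltransferase gene St8sia2 was 0.424, 6.24 and 5.88 RPKM, with no detected difference between the cultures (log2 change -0.12, adjusted p = 0.658), while Ncam1 fell between them. Cmas, which activates sialic acid, was 6.91, 15.1 and 23.2 RPKM and rose at both steps.

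Ligands and linkers of integrin α7β1 were counted next. Of 15 laminins and other basement membrane genes, 12 were lower and 1 higher in vehicle against fresh (median log2 change -1.54), and 5 were higher and 3 lower in Tubastatin A against vehicle (median 0.24). Dag1, the dystroglycan that binds laminin beside α7β1, fell at both steps (533, 137.5 and 62.4 RPKM, log2 changes -1.79 and -1.13, adjusted p = 6.52e-04 and 0.0104). Nid1, a linker of laminin networks, went from 9.01 to 1.11 and 8.35 RPKM (2.15 in Tubastatin A against vehicle, adjusted p = 1.09e-06), and Lama5 and Lamb1 rose with it (1.18 and 1.05, adjusted p = 9.25e-06 and 4.99e-04). Of 9 other integrin subunits, 6 were lower and 2 higher in vehicle against fresh (5 and 3 on the reads in the table), and 2 were lower and 4 higher in Tubastatin A against vehicle. Itga3, the α chain of another laminin receptor, rose from 1.44 to 15.1 RPKM and fell to 8.22 with the compound (2.74 and -0.80, adjusted p = 1.6e-08 and 3.53e-04). Itgb5 and Itgav, which pair into a vitronectin receptor, were both higher with Tubastatin A than with vehicle (1.93 and 0.90, adjusted p = 2.03e-07 and 2.43e-04). Of 16 genes that link integrins to actin, 6 were higher and 6 lower in vehicle against fresh (8 and 5 on the reads in the table), and 2 were higher and 8 lower with Tubastatin A. Among these, Tns3 (0.252, 12.4 and 1.50 RPKM), the adaptor Bcar1 (32.5, 83.4 and 37.6 RPKM) and the scaffold Ilk (1.20, 1.85 and 0.215 RPKM) fell most clearly in Tubastatin A against vehicle, with log2 changes of -2.43, -1.13 and -1.23.

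Of 8 genes of other syndecans, glypicans and their adaptor, 4 were lower and 2 higher in vehicle against fresh (2 and 3 on the reads in the table), and 5 were lower and 2 higher in Tubastatin A against vehicle. Sdc1 and Sdc2, the remaining syndecans, both fell with Tubastatin A as Sdc3 did (log2 changes -1.72 and -0.81, adjusted p = 7.69e-08 and 1.54e-05), with Sdc1 at 26.8, 39.0 and 11.1 RPKM and Sdc2 at 60.4, 42.7 and 23.9 RPKM. Gpc1, a glypican, rose from 87.3 to 279.3 RPKM in culture and was 111.7 with the compound (1.71 and -1.32). Of 19 genes that make or edit heparan sulfate, 6 were higher and 8 lower in vehicle against fresh (7 and 5 on the reads in the table), and 7 were higher and 5 lower with Tubastatin A. The sulfatase gene Sulf1 went from 25.2 to 1.43 and 4.20 RPKM, and the sulfotransferase gene Hs6st2 from 23.7 to 12.6 and 3.69 RPKM (log2 change -1.54 in Tubastatin A against vehicle, adjusted p = 1.76e-06).

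Of 13 genes of the Cxcr4 axis, 5 were higher and 5 lower in vehicle against fresh (7 and 3 on the reads in the table), and 2 were higher and 8 lower in Tubastatin A against vehicle. Its ligand gene Cxcl12 went from 10.7 to 24.6 RPKM in vehicle and to 2.11 with Tubastatin A (log2 change -3.04, adjusted p = 1.04e-07), so the transcripts of receptor and ligand were both lower with the compound. Ackr3, the scavenger receptor for the same ligand, went from 222.7 RPKM in fresh to 1.82 in vehicle and 8.24 with Tubastatin A (log2 changes -6.26 and 1.70, adjusted p = 3.91e-10 and 1.45e-05). The transducer Gnai2 was 149.4, 85.7 and 48.6 RPKM, lower at both steps, although its step from fresh to vehicle did not pass on the reads in the table (log2 change -0.19).

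Of 9 other cadherins and catenins, 6 were lower and 1 higher in vehicle against fresh, and 3 were lower and none higher in Tubastatin A against vehicle. On the reads in the table the splits were 5 lower and 3 higher, and 3 lower and 1 higher. The gene that rose in vehicle was Cdh2, N-cadherin, at 0.991, 14.2 and 2.46 RPKM, which fell again with the compound (log2 changes 2.95 and -2.17, adjusted p = 1.45e-07 and 1.96e-06), while Cdh13 (52.8, 6.32 and 4.17 RPKM) fell at both steps as Cdh15 did. Of 9 sialomucins related to Cd34 and their linkers, 4 were lower and 3 higher in vehicle against fresh (3 and 4 on the reads in the table), and 4 were lower and 1 higher with Tubastatin A. Ezr, ezrin, which ties such proteins to actin, was 20.4, 38.2 and 16.3 RPKM (-1.17 in Tubastatin A against vehicle, adjusted p = 2.83e-05), and Podxl, podocalyxin, was 1.91, 8.26 and 5.70 RPKM.

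Proteins such as VCAM1 and the syndecans can be cut from the cell surface, and 16 genes of sheddases and their inhibitors were counted for that reason. In vehicle against fresh 9 were lower and 4 higher (6 and 6 on the reads in the table), and in Tubastatin A against vehicle 6 were lower and 8 higher. Adam17, the main sheddase of VCAM1, was 12.9, 12.2 and 19.2 RPKM and rose with Tubastatin A (log2 change 0.61, adjusted p = 0.0102). Rhbdf2, which carries that protease to the surface, went from 30.4 to 3.53 and 20.9 RPKM (2.29, adjusted p = 3.89e-07). Timp3, an inhibitor of it, fell from 56.6 RPKM in fresh to 2.27 in vehicle and was 1.78 with Tubastatin A (-0.24 between the cultures, adjusted p = 0.262). These are levels of transcripts, and shedding was not measured.

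**Figure D4:**
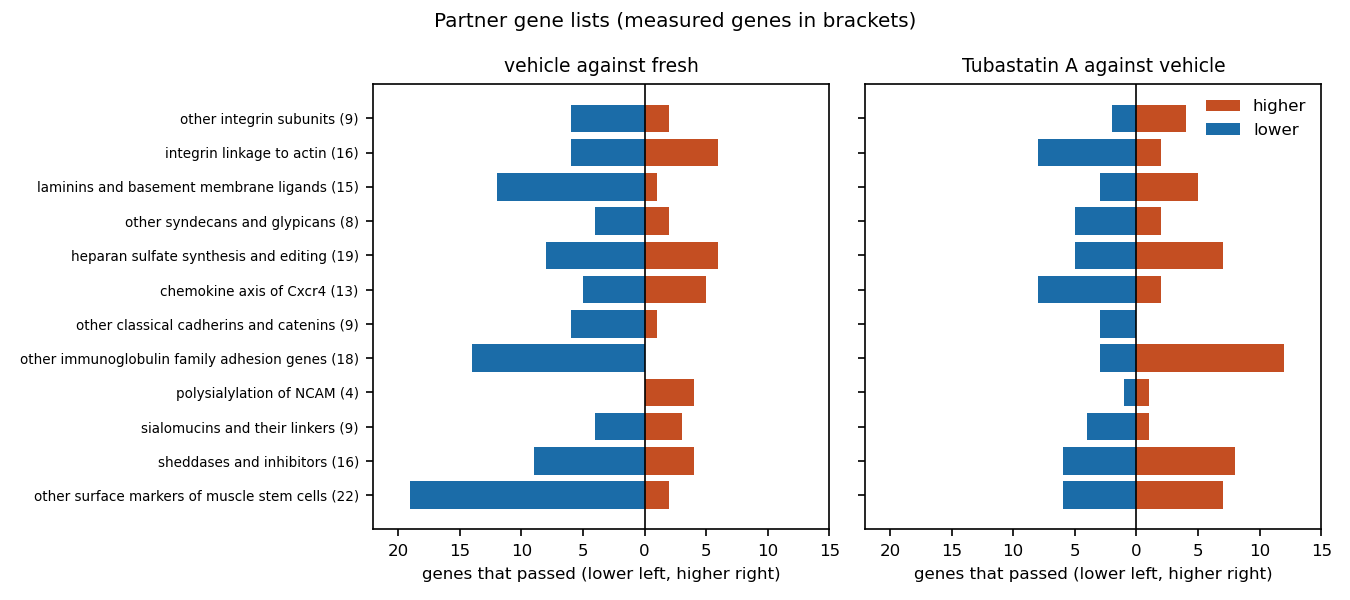
Number of genes per partner list that passed an adjusted p under 0.05, lower to the left and higher to the right of 0, in vehicle against fresh and in Tubastatin A against vehicle. The other immunoglobulin family adhesion genes show 14 lower and none higher in the left panel and 3 lower and 12 higher in the right panel. Over all genes, 35.0% were lower and 32.0% higher in the comparison on the left, and 29.7% and 29.6% in that on the right.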

How the data were processed

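The submitters' processing notes name mm10 as genome build and, with no version, STAR, Trim Galore, edgeR and the Subread program featureCounts. Values are RPKM, as deposited by the authors, for 12803 genes in 10 libraries. No value was exactly 0. RPKM multiplied by the exon length of GENCODE M21 and by 1 factor per library gave whole reads, within 0.05 reads, for 12147 of 12680 matched genes (95.8%), which gave the depth of 37.5M to 55.3M reads. A test by limma voom on these reads, as an alternative, called 8531, 7826 and 8253 genes in the order of the comparisons. The members and lists were chosen with earlier results of these data known.

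log2(RPKM + 1) of all genes was fitted with limma 3.58.1 in R 4.3.3, with a variance trend and 1 model for the 3 groups. P-values were adjusted by Benjamini-Hochberg over all genes and called under 0.05. The pseudocount of 1 RPKM understates changes of low genes. All 9 members were tested, and no filter was applied. Per list, the genes named are up to 3 with the lowest p in a comparison and direct partners of a member. In simulated data the fit found 77%, 86% and 86% of changes of 1 log2 unit in the order of the comparisons, with 3.80%, 4.64% and 4.62% of calls false. There only a small part of the genes was changed, all with a mean log2(RPKM + 1) above 1, and the noise was independent between genes. In the real data most genes passed, so these shares need not hold for them. The alternatives were other pseudocounts, scalings, filters and fits, and leaving out each library. Whether reads were counted by strand is not given in the sources used here.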

Additional observations from a re-analysis of the deposited data

Results flagged for a closer look

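Cd34 in Tubastatin A replicate 3 was 2.60 RPKM, while the other 3 libraries of the group lay between 3.71 and 3.80 RPKM, and its gap to them was large relative to the range of the group. Of the members, 9 groups of 4 libraries were looked at in this way, and chance alone marks about 1 in 20. Without that library the log2 change of Cd34 in Tubastatin A against vehicle kept its direction and its call.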

How the results depend on the processing

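Of 540 values of a member in a comparison under an alternative, 503 kept their direction and their side of the threshold, 20 no longer passed, 6 newly passed and 11 changed sign. Of the 27 results of a member in a comparison, 15 kept direction and call under every alternative tried. Requiring a 2-fold change as well, chosen after the data were seen, left 3 members in vehicle against fresh and 5 in Tubastatin A against vehicle. That criterion left 3916, 2402 and 3062 genes of the table in the 3 comparisons. Leaving out 1 library gave 6 to 7, 6 to 8 and 7 to 8 members called. The replicate block gave 7 members in each comparison, and Itgb1 in Tubastatin A against vehicle (0.47, adjusted p = 0.0824) was the call it ended. Whether replicate numbers pair the samples could not be decided, since deviations from the mean of so few libraries depend on each other. Deviations of same-numbered libraries correlated at 0.35, 0.24 and -0.19 in vehicle against fresh and at 0.38, 0.04 and 0.30 in Tubastatin A against vehicle. In Tubastatin A against fresh they correlated at 0.23, -0.09 and 0.02, and not every library correlated best with its own number.

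In TPM and on the reads in the table, signs turned for Cd34 in vehicle against fresh (0.22 and 0.22), Sdc4 in Tubastatin A against vehicle (0.085 and 0.044), and Itgb1 (0.55 and 0.51) and Sdc3 (0.18 and 0.12) in Tubastatin A against fresh. Both rescalings gave 3 members higher and 3 lower in vehicle against fresh, and 1 higher and 5 lower in Tubastatin A against fresh. Leaving out 1 library moved Itga7 in vehicle against fresh between -0.22 (without fresh replicate 2) and 0.38, and Sdc4 in Tubastatin A against vehicle between -0.096 and 0.074 (without vehicle replicate 3), with 0.045 without Tubastatin A replicate 1. The cause was not tested.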
